A study of Mus musculus with 12 samples.

Results

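Interferon-stimulated genes are the genes that cells switch on when an interferon reaches them. The 41 genes described here were taken as a list of gene symbols, and all 41 were found among the 22151 genes of the deposited table. They were split by the interferon that each is best known for answering: 30 genes of the type I interferon response, and 11 genes of the interferon gamma response. All 41 had a value in every library and passed the filter on low counts, which 17012 genes passed.

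RNA was sequenced from epididymal white adipose tissue (eWAT), the fat depot beside the testis, of male C57BL6/J mice aged 12 to 14 weeks. The PHx mice had had 70% of the liver removed by partial hepatectomy and were sampled 3 days later (PHx day 3, 5 libraries) or 7 days later (PHx day 7, 3 libraries). The sham mice (4 libraries) had a laparotomy with the liver left whole, according to the study's design text. The source label of these 4 libraries reads instead as tissue from before hepatectomy, the sources used here do not settle which holds, and the day of sampling is not given, so what a difference from sham compares is known only that far. No genotype, Cre or drug is named for any group, so surgery and time are the labelled differences, and the 3 groups are compared in pairs here. The number of mice given for each group equals its number of libraries.

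Type I interferons act through the receptor IFNAR, and the kinases JAK1 and TYK2 then switch on a complex with STAT2 and IRF9 among its parts, which binds a DNA element called the ISRE. Interferon gamma acts through its own receptor, JAK1 and JAK2, and many of the genes it induces carry an element called GAS. IRF1, itself induced this way, goes on to bind ISRE-like elements. The products include sensors of foreign RNA and DNA, enzymes that degrade RNA or block its translation, membrane and GTPase restriction factors, chemokines for T cells and the machinery of antigen presentation. Many of the genes answer to both interferons, and in fat the adipocytes, stromal cells, endothelial cells and macrophages can all express them.

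Library totals ran between 13128832 and 23474247 estimated counts. Levels below (CPM) are counts scaled to the library total after its adjustment by the TMM scaling of edgeR. They therefore differ from counts over the plain total. The adipocyte gene Adipoq was present in every library, between 328 and 4331 CPM. Its level varied between the libraries of a group, and the groups overlapped. PHx day 3 libraries 1 to 4 had 1502, 996, 960 and 909 CPM, below every sham library (1595 to 4227 CPM), and library 5 had 4331 CPM. PHx day 7 libraries 1 to 3 had 328, 3523 and 2028 CPM. Some libraries stood apart. Sham library 4 held the liver gene Alb at 2315 CPM and PHx day 7 library 2 at 192 CPM, where every other library had at most 24.6 CPM. Sham library 1 held the proliferation gene Mki67 at 191 CPM, and the others between 3.65 and 77.4 CPM. PHx day 3 library 1 went against the label of male mice, with Xist at 359 CPM and the Y-linked Ddx3y at 0.643 CPM, where every other library had at least 81.1 CPM of Ddx3y. By correlation over all genes, 7 of the 12 libraries were nearest to a library of another group: 1 of 5 at day 3 (library 5), all 3 at day 7 and 3 of 4 in sham (libraries 2, 3 and 4). The day 3 and day 7 results were recomputed without sham library 4 and PHx day 3 library 1, and without PHx day 3 library 5 and PHx day 7 library 1, a pair that an earlier account of these data had found nearer to other groups.

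The promoters of 4 members are shown, chosen by their log2 difference or p in these data. Oas3 had the lowest log2 difference of the 41 genes at day 3, and Bst2 the highest. Oasl2 had the lowest p at day 7, and Irf1 the lowest p of the interferon gamma genes at day 3. The sequences are from RefSeq on GRCm38.p6 and hold 250 bases before and 50 bases after the start of the gene, read 5′ to 3′ on the gene's strand. Capitals mark matches to the ISRE core (GAAA, any 2 bases, GAAA, or on the other strand TTTC, any 2 bases, TTTC) and to the GAS element (TTC, any 3 bases, GAA, which reads the same on both strands). Oas3 lies at chr5:120777610-120777909 (minus strand), Bst2 at chr8:71537423-71537722 (minus strand), Oasl2 at chr5:114896684-114896983 (plus strand) and Irf1 at chr11:53769764-53770063 (plus strand) on that build.
Oas3 promoter: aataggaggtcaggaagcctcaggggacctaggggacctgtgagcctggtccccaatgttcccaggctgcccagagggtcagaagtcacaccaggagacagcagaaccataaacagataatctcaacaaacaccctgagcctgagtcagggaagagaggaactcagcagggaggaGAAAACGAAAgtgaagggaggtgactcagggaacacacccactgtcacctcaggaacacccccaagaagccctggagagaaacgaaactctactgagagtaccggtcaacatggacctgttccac
Bst2 promoter: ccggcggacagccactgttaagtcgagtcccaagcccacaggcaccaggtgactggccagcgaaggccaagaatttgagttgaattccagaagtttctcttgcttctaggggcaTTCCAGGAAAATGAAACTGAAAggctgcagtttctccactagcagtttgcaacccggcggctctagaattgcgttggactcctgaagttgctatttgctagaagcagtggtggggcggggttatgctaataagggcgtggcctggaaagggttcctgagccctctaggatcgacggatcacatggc
Oasl2 promoter: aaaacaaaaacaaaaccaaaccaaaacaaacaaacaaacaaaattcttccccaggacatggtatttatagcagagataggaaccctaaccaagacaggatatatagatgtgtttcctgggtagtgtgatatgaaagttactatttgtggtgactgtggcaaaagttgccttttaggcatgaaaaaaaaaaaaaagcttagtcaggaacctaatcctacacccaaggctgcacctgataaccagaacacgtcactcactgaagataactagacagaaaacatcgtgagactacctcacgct
Irf1 promoter: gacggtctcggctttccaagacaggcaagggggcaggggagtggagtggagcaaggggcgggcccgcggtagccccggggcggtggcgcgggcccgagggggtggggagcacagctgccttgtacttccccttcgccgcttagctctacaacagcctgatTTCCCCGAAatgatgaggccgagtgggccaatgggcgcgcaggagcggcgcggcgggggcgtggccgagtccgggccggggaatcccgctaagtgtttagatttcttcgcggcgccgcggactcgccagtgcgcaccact

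The Oas3 window held 1 ISRE core, at bases 176 to 185 of the 300. The Bst2 window held 2 ISRE cores that overlap, at bases 121 to 130 and 127 to 136, and a GAS element at bases 115 to 123 beside them. The Irf1 window held a GAS element at bases 161 to 169 and no ISRE core, and the Oasl2 window held neither. Of the 41 members, 32 had a promoter in the RefSeq table. Among these the ISRE core was found in 16 (50%), against 3.49% of all 27025 genes, and the GAS element in 9 (28.1%), against 8.47% of all genes. By class, 10 of 21 type I genes and 6 of 11 gamma genes held the ISRE core, and 5 of 21 type I genes and 4 of 11 gamma genes held the GAS element. Oas3 and Bst2, the genes with the lowest and the highest difference at day 3, both carried the ISRE core. A match is a run of letters and not a measured binding site.

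At day 3 most of the interferon-stimulated genes had lower levels than in sham, in both classes. In these bulk samples, fewer cells of a type and less RNA per cell cannot be told apart. A log2 difference is always the later or operated group minus the other, from edgeR on all 12 libraries. It was negative for 26 of 30 type I genes (median -0.67, between -1.63 and 1.18) and for 10 of 11 gamma genes (median -0.63, between -1.17 and 0.33). Over all genes tested it was negative for 51.7%, with a median of -0.02. The positive members were Bst2, Oasl1, Isg20 and Trim25 among the type I genes and Cxcl10 among the gamma genes. No member passed the quasi-likelihood test of edgeR at a Benjamini-Hochberg adjusted p under 0.05 (lowest adjusted p = 0.403), and 0.00588% of all genes did, which was 1 gene.

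At an unadjusted p under 0.05, 8 type I genes and 4 gamma genes were lower at day 3, against 4.97% of all genes. Bst2, a type I gene, was higher, against 5.9% of all genes. The 8 were Oas3, Oas2, Ifi35, Irf9, Oasl2, Stat2, Dhx58 and Parp14, and the 4 were Irf1, Psmb9, Igtp and Gbp7. Every day 3 library lay below every sham library for 5 type I genes (Oas2, Oas3, Oasl2, Irf9 and Dhx58) and for 1 gamma gene (Psmb9), against 2.14% of all genes, and no member lay wholly above. Without sham library 4 and PHx day 3 library 1, 8 type I genes (1 of them higher) and 1 gamma gene had an unadjusted p under 0.05, against 2.58% of all genes with a lower level. Without PHx day 3 library 5 and PHx day 7 library 1 the counts were 16 (1 of them higher) and 8, against 11.7% of all genes with a lower level. Other libraries that also lay nearest to another group were kept, so that gain describes 1 choice of libraries and is no support. With single libraries left out, the type I count of 9 was lowest at 6 without sham library 1 and highest at 16 without sham library 3. The gamma count was lowest at 2 without sham library 4 and highest at 8 without PHx day 3 library 5. Without sham library 4 and PHx day 3 library 1 the difference was negative for 25 type I and 11 gamma genes (51.9% of all genes), and 6 and 1 lay wholly below sham (3.64% of all genes). Without PHx day 3 library 5 and PHx day 7 library 1 it was negative for 26 and 10 (52.4% of all genes), and 8 and 6 lay wholly below sham (8.06% of all genes).

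At day 7 the signs ran the same way with smaller medians. The log2 difference from sham was negative for 27 of 30 type I genes (median -0.37) and 10 of 11 gamma genes (median -0.33), against 49.3% of all genes and a median of 0.01. The 2 comparisons use the same 4 sham libraries, so their signs are not independent. No member was called by edgeR at day 7 (lowest adjusted p = 0.564), and 0% of all genes were. At an unadjusted p under 0.05, 3 type I genes (Oasl2, Oas2 and Oas3) and 1 gamma gene (Cxcl9) were lower, against 2.75% of all genes. These 4 were also the members whose day 7 libraries lay wholly below sham, against 4.07% of all genes. Single libraries moved these values: without sham library 3 the type I count was 7, and without PHx day 7 library 1 the medians were -0.16 for type I and -0.21 for gamma genes, with 0 gamma genes at an unadjusted p under 0.05. The gamma count was also 0 without PHx day 7 library 3 or sham library 1. Without sham library 4 and PHx day 3 library 1 the difference was negative for 24 type I and 10 gamma genes (47.8% of all genes), and 3 and 1 lay wholly below sham (5.32% of all genes). Without PHx day 3 library 5 and PHx day 7 library 1 it was negative for 23 and 9 (52.8% of all genes), and 3 and 1 lay wholly below sham (7.87% of all genes).

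Between the days, 22 of 30 type I genes (median 0.18) and 7 of 11 gamma genes (median 0.13) had a positive log2 difference, day 7 minus day 3, against 52.8% of all genes and a median of 0.03. Neither a member nor any other gene was called by edgeR (0% of genes, lowest member adjusted p = 0.991). Bst2 alone had an unadjusted p under 0.05, on the lower side, against 1.64% of all genes. It was also the one member whose day 7 libraries lay wholly below day 3, against 1.37% of all genes. The type I median ran between 0.07 without PHx day 7 library 2 and 0.43 without PHx day 7 library 1. The gamma median was -0.11 without PHx day 7 library 2, and below 0 without PHx day 3 library 2 as well.

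**Figure D1:**
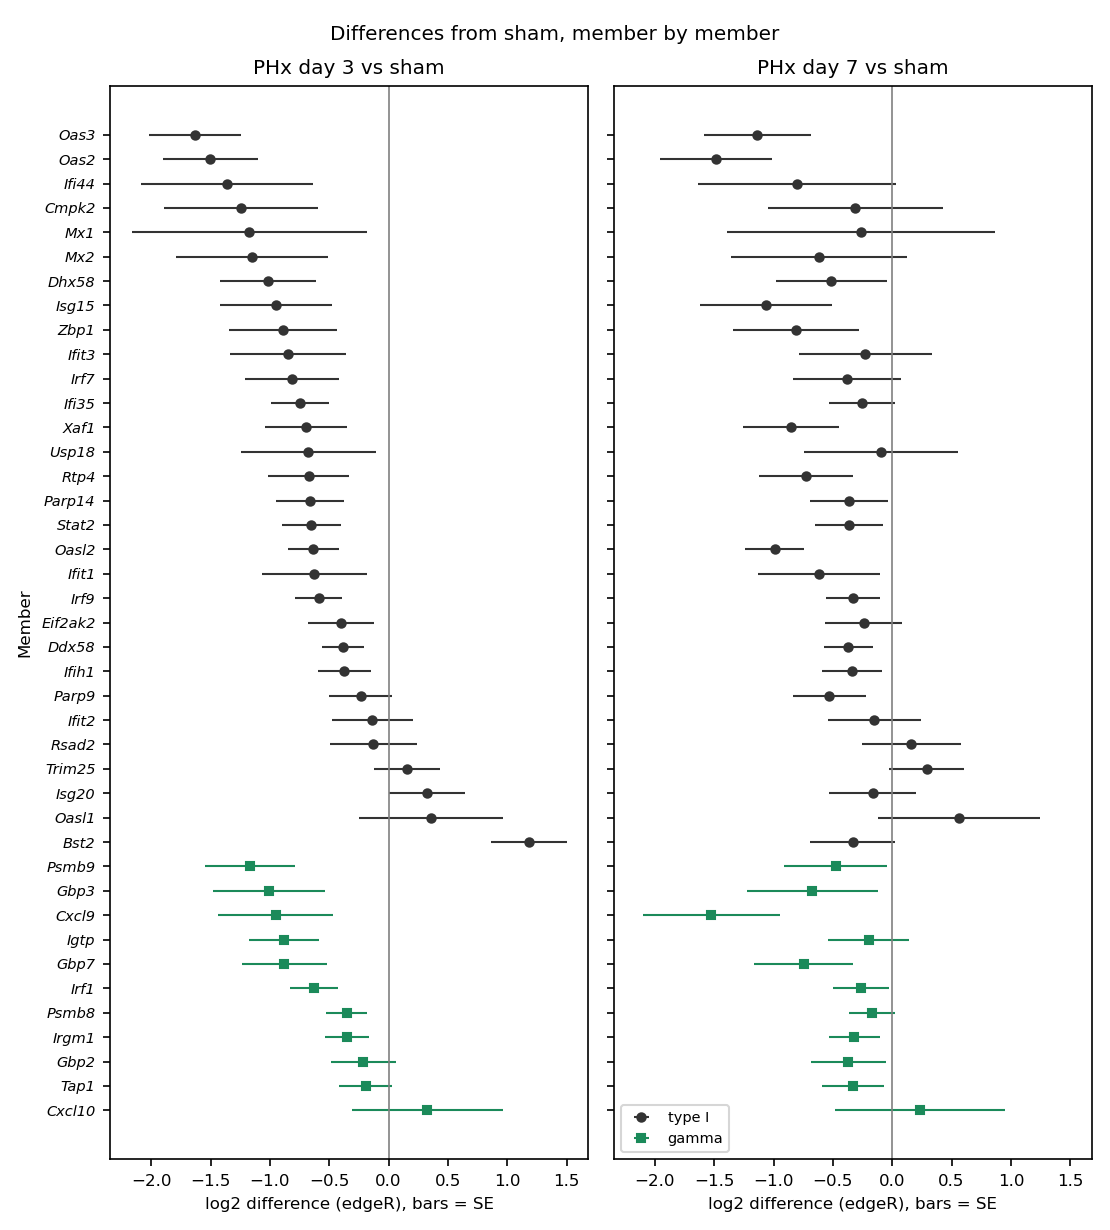
Log2 difference from sham (x axis, edgeR on all 12 libraries) of each of the 41 genes (rows, type I genes as circles above gamma genes as squares) at PHx day 3 and PHx day 7, with bars for the standard error. Most points lie left of 0 in both panels, and Bst2 lies farthest right at day 3 and left of 0 at day 7.

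Of the 2'-5'-oligoadenylate synthetase family and its relatives, 4 genes are among the 41. These enzymes sense double-stranded RNA and make the messenger that activates RNase L, and Oasl1 and Oasl2 are relatives of the family. Oas3 (chr5:120891163-120915727, minus strand; this and the following gene positions are on mm39, as the deposited table gives them) had 2.79, 2.02, 2.62, 1.76 and 2.92 CPM in PHx day 3 libraries 1 to 5, 3.78, 2.84 and 3.61 CPM in PHx day 7 libraries 1 to 3, and 12.8, 7.92, 4.13 and 5.16 CPM in sham libraries 1 to 4. All 8 PHx libraries lay below the lowest sham library, and sham library 1 was the highest. Oas3 averaged 2.42 ± 0.504 CPM at day 3 (SD, n = 5), 3.41 ± 0.499 CPM at day 7 (n = 3) and 7.503 ± 3.88 CPM in sham (n = 4). The log2 difference was -1.63 (SE 0.387, edgeR adjusted p = 0.403, rank 30 of 17012 genes by p) at day 3. At day 7 it was -1.14 (SE 0.451, edgeR adjusted p = 0.768, rank 563 of 17012 genes by p).

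Oas2, its neighbour on chromosome 5 (chr5:120868398-120887919, minus strand), had 15.6, 3.24, 10.5, 6.28 and 12.3 CPM in PHx day 3 libraries 1 to 5, 6.05, 14.5 and 8.53 CPM in PHx day 7 libraries 1 to 3, and 30.8, 31.5, 19.9 and 26.3 CPM in sham libraries 1 to 4. Here too the 8 PHx libraries lay below all 4 sham libraries, with PHx day 3 library 2 the lowest. Its average was 9.58 ± 4.88 CPM at day 3, 9.71 ± 4.37 CPM at day 7 and 27.1 ± 5.33 CPM in sham. At day 3 the log2 difference was -1.50 (SE 0.399, edgeR adjusted p = 0.403, rank 76 of 17012 genes by p), and at day 7 it was -1.48 (SE 0.473, edgeR adjusted p = 0.687, rank 196 of 17012 genes by p). Day 7 and day 3 overlapped (log2 difference 0.02, SE 0.436).

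Oasl2 (chr5:115034997-115050296, plus strand) had 44.5, 42.02, 61.96, 53.6 and 60.7 CPM in PHx day 3 libraries 1 to 5, 59.8, 32.9 and 30.5 CPM in PHx day 7 libraries 1 to 3, and 94.6, 77.2, 71.5 and 82.8 CPM in sham libraries 1 to 4. Its PHx libraries did not overlap with sham either, and 2 of the 3 day 7 libraries were the lowest of all 12. The day 3 difference was smaller (log2 difference -0.63, SE 0.212, edgeR adjusted p = 0.403), and at day 7 it had the lowest p of the 41 genes (log2 difference -0.99, SE 0.249, edgeR adjusted p = 0.564, rank 45 of 17012 genes by p). Day 7 minus day 3 gave -0.36 (SE 0.235, adjusted p = 0.999), with the day 7 and day 3 libraries overlapping. Oasl1, beside it on the chromosome and a repressor of Irf7 translation in mice, had other signs. It ranged over 3.14 to 16.1 CPM at day 3, 5.09 to 19.8 CPM at day 7 and 2.27 to 14.8 CPM in sham, with log2 differences of 0.35 at day 3 and 0.56 at day 7 and wide standard errors (0.607 and 0.682). So 3 of these 4 genes lay wholly below sham on both days, against 2.14% of all genes at day 3 and 4.07% at day 7, and Oasl1 overlapped with it. The 3 are described because of their p, so this count is no test of the family. Of the family's other genes, outside the 41, Oas1b lay wholly below sham on both days (log2 differences -1.37, SE 0.548 and -1.91, SE 0.665), Oas1g at day 3 but not at day 7 (-1.79, SE 0.527 and -0.97, SE 0.607), and Oas1a overlapped on both days (-0.93, SE 0.496 and -0.73, SE 0.576).

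**Figure D2:**
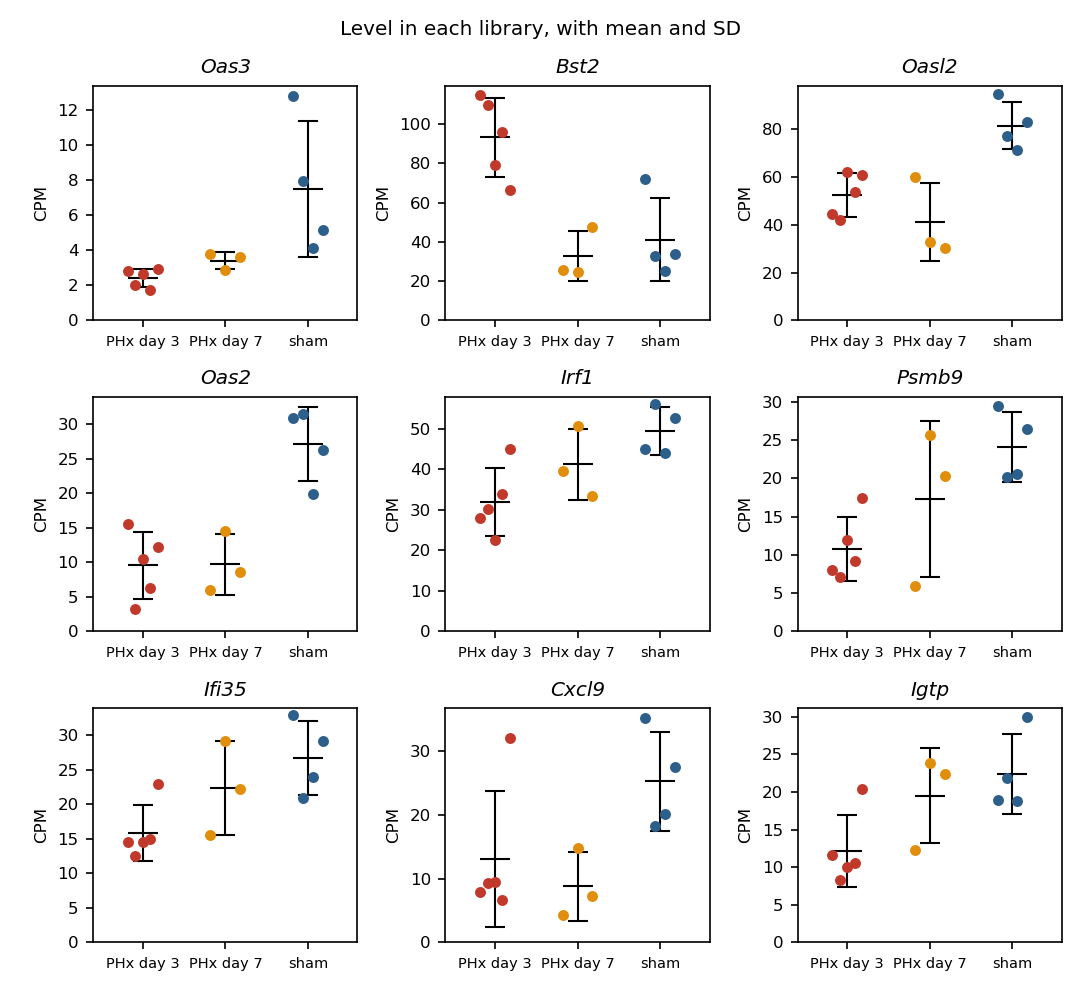
Level in CPM (y axis, starting at 0) of 9 of the genes given library by library, with 1 point per library, the groups PHx day 3, PHx day 7 and sham from left to right, and bars for the mean and SD (n = 5, 3 and 4). Oas3, Oas2 and Oasl2 show all PHx points under the sham points, and Bst2 shows the day 3 points above the day 7 points.

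Bst2 (chr8:71986899-71990101, minus strand) encodes tetherin, a membrane protein that holds budding enveloped viruses on the cell surface. It had 115, 109.5, 79.2, 95.9 and 66.4 CPM in PHx day 3 libraries 1 to 5, 25.8, 24.7 and 47.4 CPM in PHx day 7 libraries 1 to 3, and 72.2, 32.9, 24.96 and 34.1 CPM in sham libraries 1 to 4. Of the 5 day 3 libraries, 4 were above every sham library, and day 3 library 5 lay below sham library 1. Bst2 averaged 93.1 ± 20.3 CPM at day 3, 32.6 ± 12.8 CPM at day 7 and 41.04 ± 21.2 CPM in sham. At day 3 it had the highest log2 difference of the 41 genes (log2 difference 1.18, SE 0.319, edgeR adjusted p = 0.403, rank 89 of 17012 genes by p). At day 7 it overlapped with sham (-0.33, SE 0.357). Between the days, all 3 day 7 libraries lay below all 5 day 3 libraries (log2 difference -1.51, SE 0.360, edgeR adjusted p = 0.991, rank 18 of 17012 genes by p). Both comparisons use the same 5 day 3 libraries, so the day 7 minus day 3 value is not independent of the high day 3 value.

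The 4 transcription factors of the pathway among the 41 had log2 differences between -0.81 and -0.59 at day 3, and Irf1, Irf9 and Stat2, but not Irf7, had an unadjusted p under 0.05. Irf1 (chr11:53660841-53669201, plus strand), the gamma-induced factor, had 28.02, 30.3, 22.6, 33.8 and 44.9 CPM in PHx day 3 libraries 1 to 5, 39.6, 50.6 and 33.3 CPM in PHx day 7 libraries 1 to 3, and 45.003, 56.1, 43.9 and 52.5 CPM in sham libraries 1 to 4. Of the day 3 libraries only library 5 reached above the lowest sham library. It averaged 31.9 ± 8.32 CPM at day 3, 41.1 ± 8.76 CPM at day 7 and 49.4 ± 5.88 CPM in sham (SD). The log2 difference was -0.63 (SE 0.203, edgeR adjusted p = 0.403, rank 333 of 17012 genes by p) at day 3, and -0.26 at day 7. Irf9, the DNA-binding subunit of the type I complex, ranged over 20.5 to 29.96 CPM at day 3, 24.5 to 37.3 CPM at day 7 and 30.6 to 44.3 CPM in sham. Its day 3 libraries lay wholly below sham (log2 difference -0.59, SE 0.196, edgeR adjusted p = 0.403). Stat2, its partner, ranged over 19.4 to 34.1 CPM at day 3, 20.98 to 35.97 CPM at day 7 and 29.6 to 47.6 CPM in sham (log2 difference -0.65 at day 3 and -0.37 at day 7). Irf7, which drives interferon alpha genes, ranged over 10.1 to 25.9 CPM at day 3, 9.58 to 35.8 CPM at day 7 and 20.8 to 39.3 CPM in sham with overlap on both days (log2 difference -0.81 at day 3, SE 0.396). All 4 had a negative difference on each day, and none passed the adjusted threshold.

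Among the sensors of foreign nucleic acid, Dhx58 (LGP2, a regulator of RNA sensing) ranged over 2.26 to 4.93 CPM at day 3, 2.71 to 7.88 CPM at day 7 and 5.09 to 13.8 CPM in sham. The day 3 values lay wholly below sham (log2 difference -1.02, SE 0.407, edgeR adjusted p = 0.425). The RNA helicases Ddx58 (RIG-I) and Ifih1 (MDA5) had log2 differences of -0.38 and -0.37 at day 3, and of -0.37 and -0.34 at day 7. Zbp1, a sensor that can set off necroptosis, had -0.89 and -0.81 on the 2 days. Eif2ak2 (PKR), the kinase that stops translation in infected cells, had -0.40 and -0.24. Trim25, the ubiquitin ligase that acts on RIG-I, was the exception with 0.15 and 0.29. It ranged over 74.1 to 155 CPM at day 3, 76.04 to 184 CPM at day 7 and 76.1 to 136 CPM in sham. Of these 6 sensors and effectors, only Dhx58 at day 3 had an unadjusted p under 0.05.

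The IFIT genes, whose proteins bind foreign RNA ends, varied widely between libraries. Ifit1 ranged over 5.22 to 13.1 CPM at day 3, 2.39 to 15.9 CPM at day 7 and 9.46 to 19.9 CPM in sham. Its log2 difference was -0.62 at day 3 and -0.62 at day 7 with standard errors of 0.444 and 0.515. Ifit2 ranged over 9.27 to 21.4 CPM at day 3, 8.82 to 16.6 CPM at day 7 and 7.52 to 19.3 CPM in sham (-0.14 and -0.15). Ifit3 ranged over 6.30 to 24.02 CPM at day 3, 5.80 to 33.3 CPM at day 7 and 19.2 to 45.7 CPM in sham (-0.84 and -0.23). A near-identical copy, Ifit3b, could share its reads. All 3 overlapped with sham on both days. Mx1 and Mx2, dynamin-like GTPases that block virus replication, were low everywhere. Mx1 ranged over 0 to 2.02 CPM at day 3, 0.252 to 4.20 CPM at day 7 and 1.19 to 2.99 CPM in sham. Mx2 ranged over 0.448 to 2.001 CPM at day 3, 1.39 to 1.72 CPM at day 7 and 0.518 to 3.42 CPM in sham. Their day 3 differences of -1.17 and -1.15 had standard errors of 0.991 and 0.641. The neighbours Rsad2 (viperin) and Cmpk2, which act on nucleotides, had unlike differences. Rsad2 had -0.13 at day 3 and 0.16 at day 7, while Cmpk2 had -1.24 (SE 0.647) and -0.31 (SE 0.738).

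Isg15, the ubiquitin-like modifier, ranged over 2.64 to 4.71 CPM at day 3, 2.39 to 5.16 CPM at day 7 and 1.74 to 10.2 CPM in sham. Here 3 sham libraries were above all 8 PHx libraries and sham library 3 was below them (log2 difference -0.95, SE 0.473 at day 3, and -1.06, SE 0.555 at day 7). Its protease Usp18, a brake on receptor signalling, had -0.68 and -0.10. Isg20, an RNA exonuclease, had 23.7, 53.4, 27.7, 30.2 and 22.7 CPM in PHx day 3 libraries 1 to 5, 32.3, 19.3 and 15.9 CPM in PHx day 7 libraries 1 to 3, and 14.4, 34.9, 28.4 and 23.2 CPM in sham libraries 1 to 4. Day 3 library 2 was the highest and the groups overlapped (log2 difference 0.32 at day 3, -0.16 at day 7, and -0.49, adjusted p = 0.999, day 7 minus day 3, by edgeR).

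Ifi35 (chr11:101339233-101349525, plus strand), an interferon-induced protein that binds Nmi, had 14.6, 12.5, 14.5, 14.96 and 23.002 CPM in PHx day 3 libraries 1 to 5, 15.6, 29.2 and 22.2 CPM in PHx day 7 libraries 1 to 3, and 32.9, 20.9, 23.9 and 29.2 CPM in sham libraries 1 to 4. Among the day 3 libraries, library 5 alone was above the lowest sham library. The log2 difference was -0.75 (SE 0.242, edgeR adjusted p = 0.403, rank 345 of 17012 genes by p) at day 3 and -0.26 at day 7, and day 7 minus day 3 was 0.49 (edgeR adjusted p = 0.999). Xaf1 (chr11:72192455-72204560, plus strand), a pro-apoptotic factor, had 11.7, 4.89, 13.7, 9.15 and 13.1 CPM in PHx day 3 libraries 1 to 5, 7.56, 10.6 and 10.04 CPM in PHx day 7 libraries 1 to 3, and 22.6, 14.4, 8.44 and 22.4 CPM in sham libraries 1 to 4. Sham library 3 lay within the PHx values, and the other sham libraries lay above them. At day 7 the log2 difference was -0.85 (SE 0.405, edgeR adjusted p = 0.811, rank 1173 of 17012 genes by p). Parp9 and Parp14, ADP-ribosyltransferases of the interferon response, had log2 differences of -0.24 and -0.66 at day 3 and -0.53 and -0.36 at day 7. Ifi44, of less settled function, ranged over 0.367 to 5.08 CPM at day 3, 2.96 to 5.95 CPM at day 7 and 2.51 to 11.9 CPM in sham (log2 difference -1.36 at day 3, SE 0.721). Rtp4, a chaperone of receptor transport, ranged over 7.10 to 16.3 CPM at day 3, 6.05 to 13.1 CPM at day 7 and 9.16 to 23.4 CPM in sham (-0.67 at day 3 and -0.72 at day 7). The Rtp4 gene shares 39791 bases with the span of Gm45338 on the same strand, so reads of the pair may be shared.

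The gamma genes included GTPases that take part in the defence against intracellular pathogens. Igtp (Irgm3, chr11:58090382-58098418, plus strand) had 11.7, 8.26, 10.02, 10.6 and 20.4 CPM in PHx day 3 libraries 1 to 5, 12.2, 23.9 and 22.4 CPM in PHx day 7 libraries 1 to 3, and 18.99, 21.9, 18.7 and 30.03 CPM in sham libraries 1 to 4. Of the day 3 libraries, 4 lay below every sham library and library 5 within them. The day 3 log2 difference was -0.88 (SE 0.297, edgeR adjusted p = 0.403, rank 449 of 17012 genes by p). Day 7 minus day 3 gave 0.68 (SE 0.320, edgeR adjusted p = 0.999). The Igtp gene shares 7974 bases with the span of Irgm2 on the same strand, so reads of the pair may be shared. Gbp7 (chr3:142236103-142255911, plus strand) had 25.4, 9.17, 24.1, 15.6 and 34.01 CPM in PHx day 3 libraries 1 to 5, 12.5, 31.4 and 27.2 CPM in PHx day 7 libraries 1 to 3, and 34.6, 48.3, 27.8 and 48.5 CPM in sham libraries 1 to 4. The groups overlapped on both days, with a log2 difference of -0.88 at day 3 (edgeR adjusted p = 0.426). At day 7 it was -0.75 (SE 0.419, edgeR adjusted p = 0.837, rank 1987 of 17012 genes by p). Gbp3, next to it, had -1.01 at day 3 and -0.67 at day 7, Gbp2 had -0.21 and -0.37, and Irgm1 had -0.35 and -0.32. All 5 GTPases had negative differences from sham on each day, and Gbp2 also between the days (-0.16).

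Cxcl9 and Cxcl10 encode chemokines that draw T cells through CXCR3. Cxcl9 (chr5:92469206-92475939, minus strand) had 7.86, 9.30, 9.49, 6.63 and 32.02 CPM in PHx day 3 libraries 1 to 5, 4.35, 14.7 and 7.22 CPM in PHx day 7 libraries 1 to 3, and 35.1, 18.2, 20.2 and 27.5 CPM in sham libraries 1 to 4. All 3 day 7 libraries and 4 of the 5 day 3 libraries lay below every sham library, and day 3 library 5 lay among the sham libraries. It averaged 13.1 ± 10.7 CPM at day 3, 8.77 ± 5.37 CPM at day 7 and 25.2 ± 7.69 CPM in sham. The log2 difference was -0.95 (SE 0.483) at day 3. At day 7 it was -1.53 (SE 0.579, edgeR adjusted p = 0.739, rank 474 of 17012 genes by p). Cxcl10, nearby on the same strand, ranged over 1.77 to 12.01 CPM at day 3, 3.34 to 5.03 CPM at day 7 and 0.958 to 6.49 CPM in sham, and the high day 3 value came from library 1. Its log2 differences were 0.33 at day 3 and 0.24 at day 7. It overlaps Art3 on the other strand. Among other such pairs are Dhx58 with Dhx58os, Parp9 with Dtx3l, Usp18 with Gm44148 and Irf1 with Gm17334. Whether counting used strand is not given in the sources used here, so reads of such pairs may be shared.

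Psmb8, Psmb9 and Tap1 sit together on chromosome 17 and make and carry peptides for MHC class I. Psmb9 (chr17:34400961-34406739, minus strand), an immunoproteasome subunit, had 8.01, 7.16, 11.96, 9.15 and 17.4 CPM in PHx day 3 libraries 1 to 5, 5.99, 25.7 and 20.3 CPM in PHx day 7 libraries 1 to 3, and 29.5, 20.1, 20.5 and 26.5 CPM in sham libraries 1 to 4. The day 3 libraries lay wholly below sham, and 2 of the 3 day 7 libraries lay inside the sham range. Its average was 10.7 ± 4.16 CPM at day 3, 17.4 ± 10.2 CPM at day 7 and 24.2 ± 4.58 CPM in sham. The log2 difference was -1.17 (SE 0.378, edgeR adjusted p = 0.403, rank 341 of 17012 genes by p) at day 3. Day 7 minus day 3 was 0.69 (SE 0.407, adjusted p = 0.999 by edgeR). Psmb8, the subunit next to it, had -0.35 at day 3 and -0.17 at day 7. The peptide transporter Tap1, which shares 212 bases with Psmb9 on the other strand, had -0.19 and -0.33. The 3 neighbours thus had unequal log2 differences at day 3.

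The libraries themselves were compared by a score, the mean over a class of each gene's log2 CPM (prior count 2) after its own mean over the 12 libraries was taken off. For the type I genes the score was 0.04, -0.64, -0.08, -0.54 and 0.01 in PHx day 3 libraries 1 to 5, -0.58, 0.16 and 0.14 in PHx day 7 libraries 1 to 3, and 0.60, 0.40, -0.13 and 0.63 in sham libraries 1 to 4. The gamma score was -0.03, -0.77, -0.27, -0.43 and 0.24 at day 3, -0.58, 0.33 and 0.02 at day 7 and 0.56, 0.41, -0.11 and 0.63 in sham, in the same order of libraries. Sham libraries 1, 2 and 4 were the highest 3 of the 12 in both classes, and sham library 3 lay inside the day 3 range. PHx day 3 libraries 2 and 4 and PHx day 7 library 1 were the lowest 3 in both classes. The type I score averaged -0.24 ± 0.32 at day 3, -0.09 ± 0.42 at day 7 and 0.37 ± 0.35 in sham (SD), and the gamma score -0.25 ± 0.39, -0.08 ± 0.46 and 0.37 ± 0.33 in the same order.

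The 2 scores of a library lay close together. The type I minus gamma score stayed between -0.23 (PHx day 3 library 5) and 0.19 (PHx day 3 library 3). The day 7 group was split, with library 1 at the low end and libraries 2 and 3 above sham library 3 and below the other sham libraries. Among the day 3 libraries, library 5 was the nearest to sham by the gamma score, and library 1 by the type I score.

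**Figure D3:**
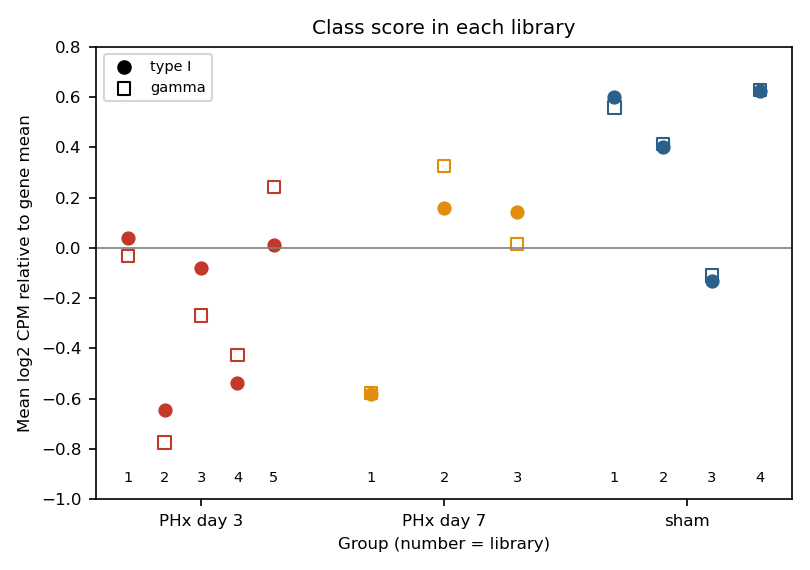
Type I score (filled circles) and gamma score (open squares) of each library on the log2 scale (y axis), with PHx day 3, PHx day 7 and sham from left to right and the library number above the axis. Sham libraries 1, 2 and 4 lie above all PHx libraries by both scores, while sham library 3 lies inside the day 3 range.

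Gene by gene the same libraries recurred. The highest of the 12 values was in a sham library for 22 of 30 type I genes and 9 of 11 gamma genes, against 33.9% of all genes. Sham library 1 (11 type I and 4 gamma genes) and sham library 4 (8 and 4) held most of these. The lowest value was in a day 3 library for 18 and 7 genes, against 38.8% of all genes. PHx day 3 library 2 held 9 type I and 5 gamma genes. Without sham library 4 and PHx day 3 library 1, the highest value was in sham for 19 and 9 genes (31.1% of all genes) and the lowest at day 3 for 17 and 7 (37.1%). Without PHx day 3 library 5 and PHx day 7 library 1 these counts were 22 and 9 (40.2%), and 23 and 9 (42.1%). Counted against the whole sham range, PHx day 3 library 2 was below all 4 sham libraries for 21 type I and 9 gamma genes, and PHx day 3 library 5 for 9 and 1. At day 7, library 1 was below the sham range for 20 type I and 9 gamma genes, library 2 for 5 and 1, and library 3 for 5 and 4. Over all genes, the share below the sham range was between 17% and 29.3% per library. In PHx day 3 libraries 2 and 5 it was 28.8% and 17%. In PHx day 7 libraries 1 to 3 it was 29.3%, 19.9% and 18.5%. The type I share in these day 7 libraries was 66.7%, 16.7% and 16.7%, so only library 1 exceeded its share of all genes. The gamma share was 81.8%, 9.09% and 36.4%.

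**Figure D4:**
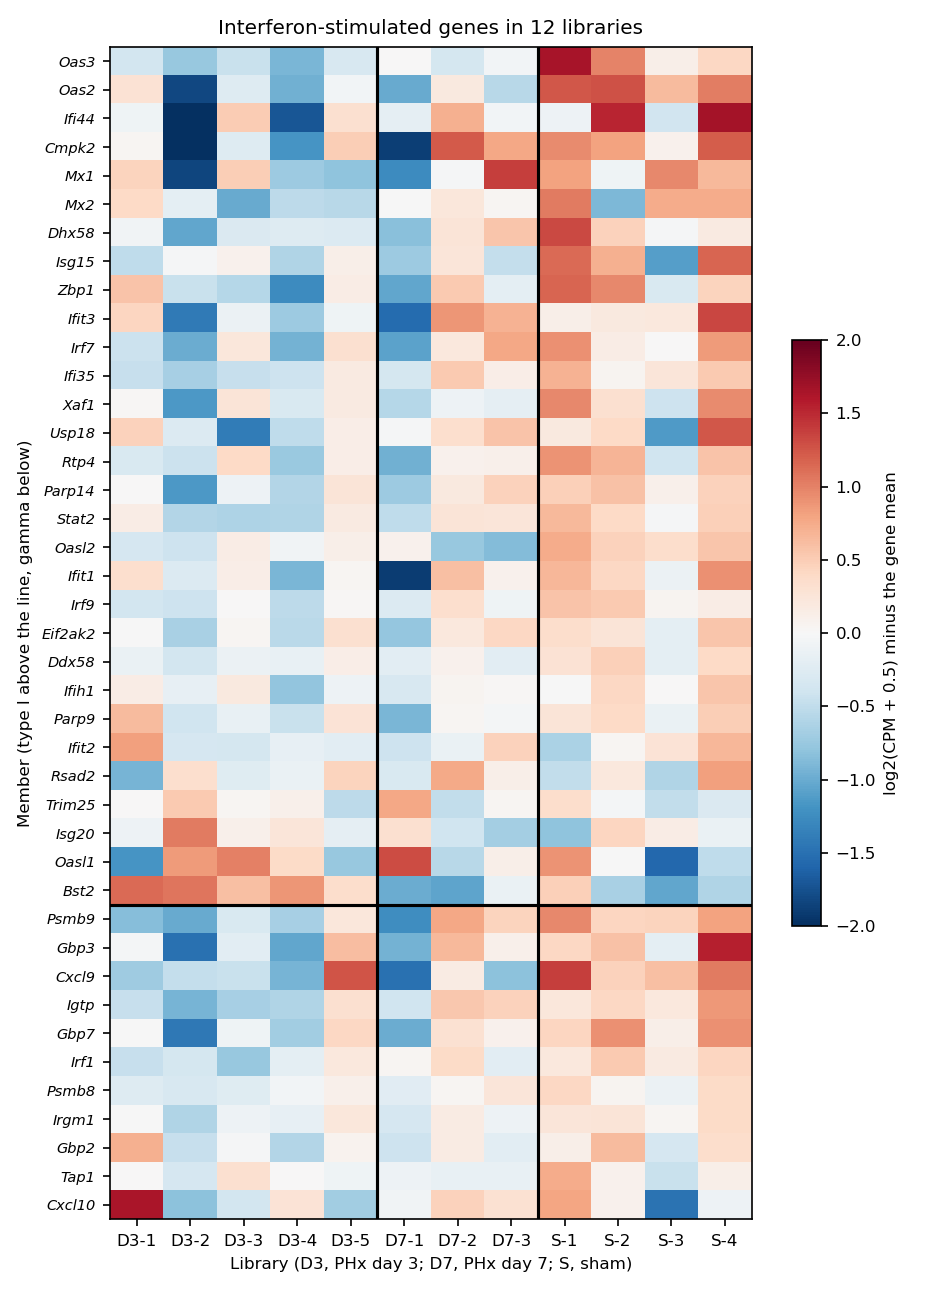
Log2 of CPM + 0.5 minus the gene's own 12-library mean, with the 41 genes in rows (type I above gamma), libraries in columns from PHx day 3 over PHx day 7 to sham, and the colour scale limited at 2 on either side of 0. Sham libraries 1, 2 and 4 are above the gene mean for most genes, PHx day 3 libraries 2 and 4 and PHx day 7 library 1 are below it for most, and Bst2, Oasl1 and Trim25 run another way.

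Other genes of the pathway were taken from lists chosen with earlier results of these data known. The 9 interferon ligand genes listed were not analysed here. The receptors and signal transducers (14 genes tested) had no common sign. At day 3, 6 were positive and 8 negative (median -0.002), and 8 were positive and 6 negative at day 7 (median 0.08). At an unadjusted p under 0.05, the gamma receptor chain Ifngr1 was higher (log2 difference 0.44 with an SE of 0.199, edgeR adjusted p = 0.450) and the kinase Tyk2 lower (log2 difference -0.73 with an SE of 0.305, edgeR adjusted p = 0.428) at day 3. The phosphatase Ptpn2 was higher at day 7 (log2 difference 1.48 with an SE of 0.558, edgeR adjusted p = 0.739), but its day 7 libraries overlapped with sham. Ptpn2 averaged 43.4 ± 46.6 CPM at day 7 (SD), ranging over 13.6 to 97.0 CPM, against 11.4 to 18.5 CPM in sham. For this and the next 3 lists, the share of all genes at an unadjusted p under 0.05 was 4.97% lower and 5.9% higher at day 3, and 2.75% lower and 3.51% higher at day 7.

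The genes of nucleic acid sensing and interferon induction (16 tested) were also mixed against sham, with 7 positive and 9 negative at day 3 and 9 positive and 7 negative at day 7. For day 7 minus day 3, 14 were positive and 2 negative (median 0.15), against 52.8% positive of all genes. Tbk1, the kinase that activates IRF3, was higher than sham at day 3 (log2 difference 0.55 with an SE of 0.181, edgeR adjusted p = 0.403) and at day 7 (log2 difference 0.53 with an SE of 0.203, edgeR adjusted p = 0.739), where its libraries lay wholly above sham, against 2.83% of all genes. The adaptors Myd88 at day 3 (log2 difference 0.64 with an SE of 0.285, edgeR adjusted p = 0.446) and Ticam1 at day 7 (log2 difference 0.60 with an SE of 0.272, edgeR adjusted p = 0.791) also had an unadjusted p under 0.05 on the higher side, which makes 2 of the 16 genes on each day. Most of the further response genes outside the 41 had negative signs, like the members. Of all genes, 51.7% were negative at day 3 and 49.3% at day 7. Of 38 other type I response genes tested, 32 were negative at day 3 (median -0.60) and 32 at day 7 (median -0.57), with 14 lower and 1 higher at day 3 and 7 lower and 0 higher at day 7 at an unadjusted p under 0.05, against 4.97% lower and 5.9% higher, and 2.75% lower and 3.51% higher, of all genes. Samd9l averaged 26.9 ± 4.17 CPM at day 3 and 52.7 ± 2.30 CPM in sham, with every day 3 library below sham (log2 difference -0.97 with an SE of 0.190, edgeR adjusted p = 0.403). Sp100, a nuclear body protein, followed (log2 difference -0.94 with an SE of 0.252, edgeR adjusted p = 0.403). The 1 higher gene at day 3 was Ifi207 (log2 difference 1.29 with an SE of 0.384, edgeR adjusted p = 0.403). At day 7 the 2 genes with the smallest p were Apol9b (log2 difference -2.002 with an SE of 0.465, edgeR adjusted p = 0.564) and Apol9a (log2 difference -1.80 with an SE of 0.467, edgeR adjusted p = 0.564), near-identical copies between which reads could be split.

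Of 29 other gamma response genes tested, 23 were negative at day 3 (median -0.53) and 24 at day 7 (median -0.39), with 4 lower and 1 higher at day 3 and 3 lower and 2 higher at day 7 at an unadjusted p under 0.05, against the same shares of all genes. Gbp4, a further guanylate-binding GTPase, had every day 3 library below every sham library (log2 difference -1.52 with an SE of 0.365, edgeR adjusted p = 0.403). H2-Q7, a class I gene with close copies, was next (log2 difference -0.88 with an SE of 0.312, edgeR adjusted p = 0.409). Nos2 was the 1 higher gene at day 3 (log2 difference 1.42 with an SE of 0.655, edgeR adjusted p = 0.458). It was also among the 2 higher at day 7. Cd274, the checkpoint ligand PD-L1, had another sign at day 7. It averaged 27.6 ± 8.98 CPM at day 7 and 13.5 ± 2.68 CPM in sham, with every day 7 library above sham (log2 difference 1.03 with an SE of 0.325, edgeR adjusted p = 0.686), against 2.83% of all genes. Against day 3 its day 7 libraries were also all higher (log2 difference 1.17 with an SE of 0.307, edgeR adjusted p = 0.999), against 1.35% of all genes. Tapbp, which loads peptides onto class I, was lower at day 7 (log2 difference -0.57 with an SE of 0.231, edgeR adjusted p = 0.768). None of the genes named here passed the adjusted threshold of edgeR.

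Cell type markers were summed beside these values. Conventional dendritic cell markers (5 of 6 listed genes with values) came to 20.9 to 32.2 CPM at day 3, 23.9 to 49.8 CPM at day 7 and 39.6 to 44.8 CPM in sham. The day 3 sums lay wholly below sham, but Zbtb46 alone averaged 19.8 ± 4.73 CPM at day 3 and 27.8 ± 0.597 CPM in sham. By the mean log2 level of the 5 genes relative to each gene's mean, PHx day 3 library 5 (0.56) lay inside the sham range of 0.25 to 0.75. B cell markers (3 of 5) came to 0 to 2.78 CPM at day 3, 0.263 to 1.72 CPM at day 7 and 1.55 to 19.6 CPM in sham, with all 3 genes lower at day 3 at an unadjusted p under 0.05, against 4.97% of all genes. T and NK cell markers (6 of 9) came to 0.224 to 2.85 CPM at day 3, 0.252 to 4.69 CPM at day 7 and 1.40 to 5.73 CPM in sham. Plasmacytoid dendritic cell markers (3 of 6) came to 64.3 to 125 CPM at day 3, 88.5 to 125 CPM at day 7 and 92.1 to 113 CPM in sham, where the defining gene Siglech was at 0 in PHx day 3 libraries 2, 3 and 4 and PHx day 7 library 1. Macrophage markers (6 of 6) overlapped, at 854 to 2512 CPM at day 3, 921 to 4818 CPM at day 7 and 1089 to 2826 CPM in sham. Erythroid markers (5 of 5) came to 1796 to 27789 CPM at day 3, 3943 to 13744 CPM at day 7 and 1474 to 4527 CPM in sham, with all 5 genes higher at day 3 at an unadjusted p under 0.05, against 5.9% of all genes. Their sums were highest in PHx day 3 libraries 2 and 4 (27789 and 17509 CPM) and PHx day 7 library 1 (13744 CPM). The same libraries had the lowest type I and gamma scores. Sham library 3, with both scores below 0, had the lowest erythroid sum (1474 CPM). Mesothelial markers (5 of 5) came to 549 to 852 CPM at day 3, 189 to 713 CPM at day 7 and 645 to 1011 CPM in sham. Their log2 difference was negative for 4 of the 5 genes at day 3 (1 at an unadjusted p under 0.05) and for all 5 at day 7 (median -1.17, 3 at an unadjusted p under 0.05, against 2.75% of all genes). Adipocyte markers (6 of 6) came to 18253 to 26231 CPM at day 3, 13577 to 18434 CPM at day 7 and 15229 to 22778 CPM in sham, with 3 of 6 genes negative at day 3 and 6 of 6 at day 7 (median -0.38, 0 at an unadjusted p under 0.05). The summed neutrophil, endothelial and hepatocyte markers overlapped with sham on both days. All 4 hepatocyte genes with values were negative at day 3, and 3 had an unadjusted p under 0.05, against 4.97% of all genes. Their sum was 2888 CPM in sham library 4 and at most 8.23 CPM in the other sham libraries. Neutrophil sums ranged over 6.63 to 223 CPM at day 3, 11.4 to 551 CPM at day 7 (highest in library 1) and 6.24 to 225 CPM in sham. The part of any of these cells in the interferon-stimulated genes was not tested.

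The authors' deposited table gives its own fold change and false discovery rate (FDR) for both comparisons with sham. In the authors' deposited table, 1 of the 41 genes had an FDR under 0.05 at day 3, against 0.564% of all genes: Oas3, with a log2 ratio of -1.64 and an FDR of 0.0184. Next in the authors' deposited table came Oas2, with -1.50 and an FDR of 0.0621, and Bst2 on the other side, with 1.18 and an FDR of 0.0627. At day 7 no member had an FDR under 0.05 in the authors' deposited table, against 0.227% of all genes, and Oasl2 was the nearest with an FDR of 0.105.

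Whether a member was called depended on the test. DESeq2, fitted to the same 12 libraries, called Oas3 at day 3 (log2 difference -1.64, adjusted p = 0.0151), against 0.661% of all genes, and Bst2 between the days (log2 difference -1.50, adjusted p = 0.0324), against 0.144% of all genes. The voom method of limma, with a weight for the quality of each library, called Oasl2 at day 7 (log2 difference -1.26, adjusted p = 0.0203), against 0.0882% of all genes. With PHx day 3 library 5 and PHx day 7 library 1 left out, edgeR called 9 members at day 3. These were Bst2 higher and Oas2, Oas3, Oasl2, Ifi35, Irf1, Igtp, Cxcl9 and Psmb9 lower, against a share of 5.79% of all genes. In that fit it called Oasl2, lower at day 7, against 0.098% of all genes, and Igtp and Psmb9, higher at day 7 than at day 3, against 2.54% of all genes. Those libraries were picked by an earlier account of these data, while others that lay nearest to another group were kept, so calls gained this way describe the remaining libraries and are no support.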

How the data were processed

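RNA from 12 eWAT libraries was sequenced. The submitters' processing notes name STAR, Partek, DESeq2 and mm39, with no versions, and strandedness is not given in the sources used here. The authors deposited estimated counts per gene, headed as raw (29.4% to 39.8% of values per library not whole), normalised counts (a signal, counts over 1 factor per library, per the file headers), and their own p-values, ratios and log2 ratios. The per-sample lines of that table are not on the lines of their genes. Each of 18086 lines was therefore matched to the gene whose deposited maximum and arithmetic mean it gives, within a relative tolerance of 3e-05. Before this, each library's normalised values were multiplied by a factor set from a looser match to the same maxima. The geometric mean was held to a looser tolerance. Of the lines, 18070 matched 1 gene and 16 were settled by their neighbours, and 4065 genes had no line.

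Counts were rounded and tested with the quasi-likelihood test of edgeR 4.0.16 (R 4.3.3; TMM scaling, filterByExpr with a minimum count of 10, robust fit, all 12 libraries, no covariate), with Benjamini-Hochberg adjustment over 17012 genes. The scripts were tested on simulated counts. DESeq2 1.42.0, voom of limma 3.58.1, other scaling, no filter, 2-group fits, a replicate block and left-out libraries were the alternatives. Values in every library are given for the 4 type I and 2 gamma genes with the smallest p in each comparison and a mean of at least 1 CPM. The members, classes and lists were chosen with earlier results of these data known. In the lists of further pathway genes, 1 gene is not reported here and is left out of their counts. Totals of 13128832 to 23474247 put members under about 1 CPM at few counts.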

Additional observations from a re-analysis of the deposited data

Results flagged for a closer look

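In 8 of 82 groups of 4 or 5 libraries, 1 library lay far from the rest of its group by Dixon's criterion. For normally distributed values, chance meets it in about 1 group in 20. The 82 groups are the member genes in the same PHx day 3 and sham libraries, so they are not independent. No share over all genes is given, so whether 8 is more than chance gives was not tested. PHx day 3 library 5, whose profile over all genes was nearest to a day 7 library, was the high one for Ifi35 (23.002 CPM, the other day 3 libraries 12.5 to 14.96 CPM), for Igtp (20.4 CPM, others 8.26 to 11.7 CPM) and for Cxcl9 (32.02 CPM, others 6.63 to 9.49 CPM). PHx day 3 library 1, which went against its sex label, was high for Ifit2 (21.4 CPM, others 9.27 to 10.6 CPM) and Cxcl10 (12.01 CPM, others 1.77 to 4.40 CPM). PHx day 3 library 2 was high for Isg20 (53.4 CPM, others 22.7 to 30.2 CPM) and low for Dhx58 (2.26 CPM, others 4.19 to 4.93 CPM). Sham library 4, which held high Alb, was high for Ifit3 (45.7 CPM, the other sham libraries 19.2 to 20.6 CPM). The part of these library features in the values was not tested.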

How the results depend on the processing

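Class medians and the differences of the genes given library by library kept their sign under every alternative tried, except for the gamma median between the days. Leaving out single libraries kept the type I median at -0.81 to -0.57 at day 3, -0.57 to -0.16 at day 7 and 0.07 to 0.43 between the days, and the gamma median at -0.81 to -0.53, -0.49 to -0.21 and -0.11 to 0.31, the last of these crossing 0 without PHx day 7 library 2 or PHx day 3 library 2. No library left out alone gave a called member (0 to 0 in the 3 comparisons). At day 3 the type I genes at an unadjusted p under 0.05 numbered 9, with 20 by voom, 16 without PHx day 3 library 5 and PHx day 7 library 1, and 6 to 16 without single libraries (16 without sham library 3, 6 without sham library 1). The gamma genes numbered 4, with 7 by voom, 8 and 1 without the same pair and without sham library 4 and PHx day 3 library 1, and 2 to 8 without single libraries (2 without sham library 4, 8 without PHx day 3 library 5). At day 7 they numbered 3 type I genes (2 to 7, 7 without sham library 3) and 1 gamma gene (0 to 1, 0 without PHx day 7 library 1, PHx day 7 library 3 or sham library 1, and 2 by voom). Between the days, 1 type I gene became 9 by voom and 9 without PHx day 3 library 5 and PHx day 7 library 1 (1 to 5 without single libraries, 5 without PHx day 7 library 1), and 0 gamma genes became 2 by voom and 3 without that pair (0 to 3, 3 without PHx day 3 library 5). Calls at an adjusted p under 0.05 were 1 by DESeq2 at day 3 and between the days, 1 by voom at day 7, and 9, 1 and 2 without PHx day 3 library 5 and PHx day 7 library 1; over all genes voom had 3659 unadjusted calls at day 3, against 1849 by edgeR. Same-numbered libraries did not deviate together (r between -0.371 and 0.187, and not every library was nearest to its own number), so the numbers were not taken as pairs. With the replicate block, 2 type I and 2 gamma genes had an unadjusted p under 0.05 between the days. The cause of these differences was not tested, and with 3 to 5 libraries a group and members such as Mx1 near 1 CPM, differences of the size seen could be missed.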
